A study of Cercocebus atys with 16 samples.

Results

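The helper T cell lineage factors are transcription factors that set and hold the identity of helper subsets. They were followed here in double-negative T cells of sooty mangabeys, African monkeys that are natural hosts of SIV. Members were taken by gene name, as every array probe named TBX21, EOMES, GATA3, MAF, RORA, BCL6, FOXP3 or HLX. The names gave 8 probes for 7 of the 8 genes, out of 43603 distinct probes, and all 8 probes were among the 27492 bright enough to be tested. MAF was not analysed here, since no probe was matched to it by name.

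The cells were CD3+CD4-CD8- T cells from blood, taken with magnetic beads after CD4, CD8 and CD16 cells had been removed, and rested overnight. Each of 4 SIV-infected animals gave a stimulated sample, kept 4 h with anti-CD3 (3 mg/ml) and anti-CD28 (1 mg/ml, both doses as the labels write them), and an unstimulated sample. FBR and FTV were labelled low for CD4 status, and FNV and FKN normal. Each animal had 4 two-colour arrays, of which 2 set its stimulated RNA against its unstimulated RNA with the dyes exchanged, 1 held stimulated RNA in both channels and 1 held unstimulated RNA in both. An animal is therefore 1 replicate, n = 4 for stimulation and 2 against 2 for CD4 status, and all animals were infected, so no result bears on infection itself. The labels used here give no age, and whether a fall in a bulk sample means fewer cells of a type or less RNA per cell cannot be told apart.

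Helper T cells are grouped by the cytokines they make, and each group depends on a leading transcription factor. TBX21 (T-bet) drives the interferon-gamma programme of Th1 cells, with EOMES, its T-box relative that is also prominent in cytotoxic and NK cells, and HLX, a homeobox factor that acts with T-bet. GATA3 directs the Th2 programme and is also needed for T cell development. RORA is a nuclear receptor that takes part in the Th17 programme, BCL6 is a repressor that directs follicular helper cells, and FOXP3 directs regulatory T cells. Double-negative T cells carry neither coreceptor, and in sooty mangabeys they have been studied as a possible source of helper functions when CD4+ T cells are few.

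Each value rests on a 60-base probe drawn from the rhesus macaque genome (rheMac2) and hybridised with sooty mangabey RNA; mismatches between the species were not examined here. The stretches that stand for each factor in these data are given 5′ to 3′ as the array files write them. HLX and FOXP3 are shown whole and the others by positions 16 to 45 of the probe.
TBX21: tctctgtttagtagttggttggggaagtgg
EOMES: tggtttcacctgactttgattccttaaccc
HLX: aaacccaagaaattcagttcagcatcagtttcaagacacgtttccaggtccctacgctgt
GATA3 probe 1: tgaacaagtccctgtaattgttgtttgtat
GATA3 probe 2: gttctgtgttagtgatcgctgcctttaata
RORA: gtgatcggggtcaggcaaaggaggggaaac
BCL6: actgcatcaccgcgttgtaaaatatagctg
FOXP3: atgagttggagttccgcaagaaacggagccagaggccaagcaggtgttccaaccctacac
The TBX21 probe lies at chr16:31956832-31956891 on the plus strand and the EOMES probe at chr2:170107495-170107554 on the minus strand. The HLX probe is placed at chr1:149429596-149430433 on the minus strand, a span of 838 genomic bases for its 60 bases. GATA3 probe 1 lies at chr9:8275773-8275832 and GATA3 probe 2 at chr9:8276207-8276266, both on the plus strand and 434 bases apart from start to start. The RORA probe lies at chr7:38916509-38916568 on the minus strand, the BCL6 probe at chr2:180062210-180062269 on the minus strand and the FOXP3 probe at chrX:47103054-47103113 on the minus strand. The array files give no exon or UTR for these positions. GC content ran between 36.7% (GATA3 probe 1 and BCL6) and 55% (TBX21 and FOXP3), against a median of 43.3% over all probes. The RORA probe carried that name only in the newer of the 2 annotation editions among the files, and the other 7 probes carried theirs in both.

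Of the 32 channels, 16 held stimulated and 16 unstimulated RNA. RORA, TBX21, EOMES, BCL6 and both GATA3 probes were well above background in all of them, by the scanner's own flag. FOXP3 was well above background in 14 of 16 stimulated and 16 of 16 unstimulated channels, and HLX in 12 of 16 stimulated and 15 of 16 unstimulated channels. The HLX spot's signal over its local background had a median of only 16.9 intensity units in stimulated and 26.7 in unstimulated channels, and that of FOXP3 97.6 and 91.1, so ratios of these 2 probes are drawn towards 0 by the offset of 50 added before the logarithm. Levels below are log2 normalized intensities, averaged for each animal over the 4 channels that held the RNA in question. They may be compared between samples for 1 probe, not between probes.

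The 4 arrays of FNV were scanned earlier than the other 12, and that animal also stood apart in markers of other cell types. On 1 of its ratio arrays the title and a treatment label disagree on the RNA in the Cy5 channel, and the title was followed. Without that array the mean log2 response was 1.09 for RORA (limma adjusted p = 0.00224) and 0.35 for TBX21 (limma adjusted p = 0.0457), against 1.07 and 0.37 with it. The T cell genes CD3D, CD3E, CD3G and CD2 were well above background in all channels. The CD4 probe was too, in cells selected as CD4-, while no probe was matched to CD8A or CD8B. FNV had the lowest level of all 11 tested T cell markers when stimulated and of 10 of 11 when unstimulated, with a summed intensity of 84145 in stimulated and 57742 in unstimulated cells, against 108174 to 135760 and 89431 to 91934 in the other 3 animals. The sum of 7 red cell and platelet markers was also lowest in FNV, at 7008 in stimulated and 6242 in unstimulated cells, against 20957 to 34591 and 27255 to 44280. FNV was highest for 9 of 10 tested monocyte markers in either condition. The summed intensity of the 11 of 14 monocyte markers with a probe was 38660 in stimulated and 110346 in unstimulated FNV cells, against 3834 to 6569 and 5008 to 10516 in the other 3 animals. The summed intensity of 7 B cell markers was also highest in FNV, at 4765 in stimulated and 15944 in unstimulated cells, against 755 to 1095 and 1986 to 3527. The summed intensity of 8 NK cell markers was highest in FTV, at 23291 in stimulated and 14417 in unstimulated cells, against 3264 to 6016 and 3353 to 6492 in the others. NKG7 and KLRD1 made up 96.6% of that sum in stimulated and 94.1% in unstimulated FTV cells. Among the 6 tested NK cell markers FTV was highest for 3, NKG7, KLRD1 and KLRF1, while FNV was highest for FGFBP2 and NCAM1 and FBR for NCR3, in both conditions. The NK receptor NCR1 was well above background in 1 of 16 stimulated and 2 of 16 unstimulated channels.

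RORA was 2.09-fold higher and TBX21 1.30-fold higher in stimulated than in unstimulated cells, while EOMES, HLX, GATA3, BCL6 and FOXP3 did not pass the test. Thus 2 of 8 probes rose and none fell at an adjusted p of 0.05 (limma, Benjamini-Hochberg over all 27492 probes). Among all probes tested 19.9% rose, 20.4% fell and 40.3% were called either way, so 2 of 8 is near the share of all probes that rose. The same 2 probes passed when FNV was left out. Responses were above 0 in all 4 animals for RORA, TBX21, GATA3 probe 1 and BCL6, 4 of 8, against 28.2% of all probes, and 58.2% of all probes had 1 sign in all 4 animals. For TBX21 in FNV this rested on the array whose labels disagree, since the other ratio array of FNV gave -0.0017. A response below is the log2 ratio of stimulated over unstimulated RNA within an animal, averaged over the exchanged dyes.

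RORA, the nuclear receptor of the Th17 programme, had the largest response of the members. Its stimulated levels were 10.85 in FBR, 10.92 in FTV, 11.03 in FNV and 10.81 in FKN, against unstimulated levels of 10.14 in FBR, 9.84 in FTV, 9.71 in FNV and 9.65 in FKN. Every stimulated level lay above every unstimulated one, which was true of 7.69% of all probes. RORA RNA was 1.66-fold higher in stimulated than unstimulated cells of FBR, 2.04-fold in FTV, 2.54-fold in FNV and 2.24-fold in FKN. The mean log2 response was 1.07 ± 0.26 (SD, n = 4; 95% interval 0.79 to 1.34; limma adjusted p = 0.00181), and a rise of at least 2-fold that passed the test was seen in 3.68% of all probes. All 8 ratio arrays gave a positive ratio, from 0.70 to 1.44, and the self-self arrays, which were no part of that ratio, gave a mean difference of 1.07 ± 0.27 (SD, n = 4) between stimulated and unstimulated cells. The animals were close together once stimulated: the SD of the stimulated levels was 0.10, lower than in all but 9.94% of probes, and that of the unstimulated levels 0.22.

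**Figure D1:**
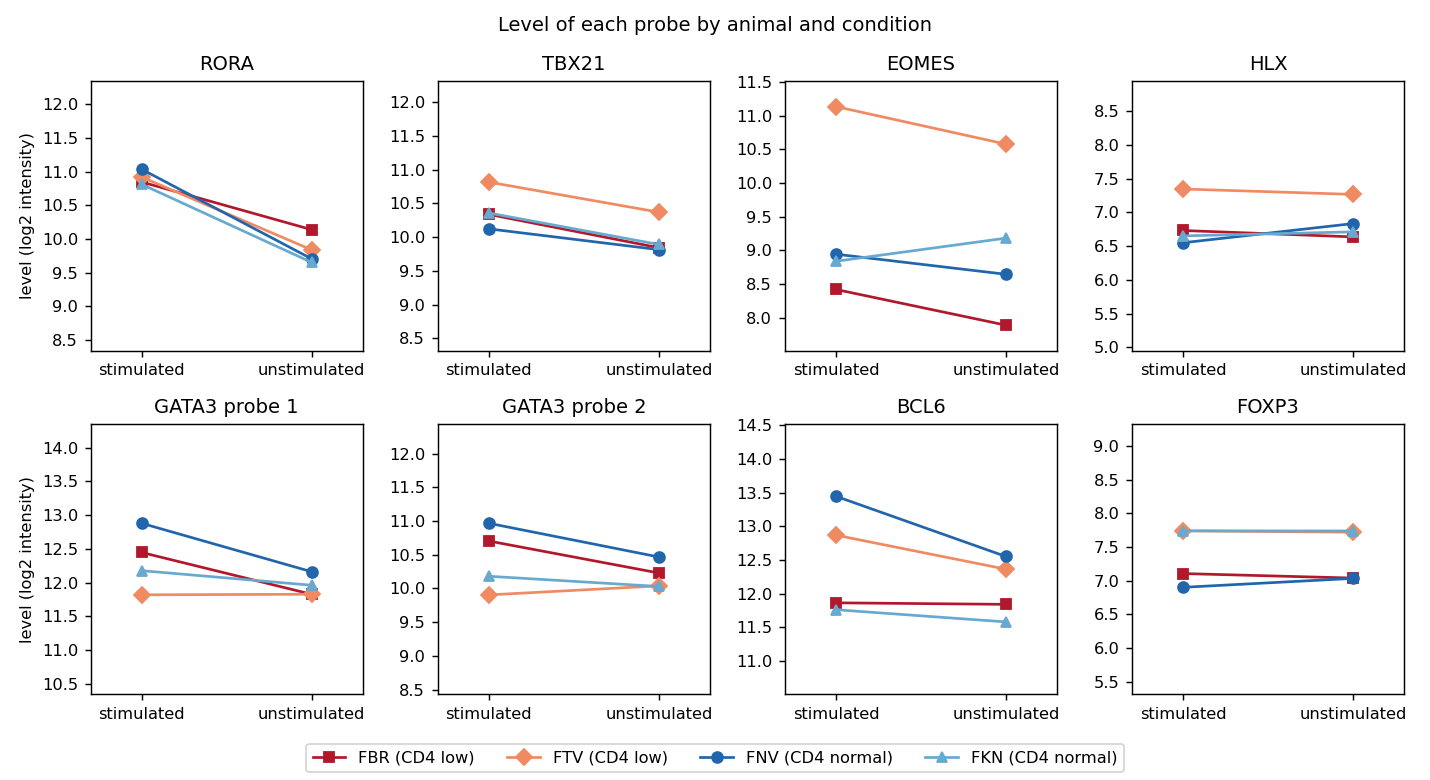
Level of each probe (y axis, log2 normalized intensity; every panel spans the same number of log2 units) in stimulated cells (left) and unstimulated cells (right), 1 line per animal, red for CD4 low and blue for CD4 normal. RORA was higher in stimulated cells of all 4 animals with no overlap between the conditions, while every other probe overlapped between them. In either condition the animals spanned more than the condition means differed for TBX21, EOMES, HLX, GATA3 probe 2, BCL6 and FOXP3. For GATA3 probe 1 this held in stimulated cells only.

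TBX21, the master factor of the Th1 programme, rose less. Its stimulated levels were 10.34 in FBR, 10.82 in FTV, 10.12 in FNV and 10.36 in FKN, against unstimulated levels of 9.84 in FBR, 10.37 in FTV, 9.81 in FNV and 9.89 in FKN. Each animal was higher when stimulated, but the conditions overlapped because unstimulated FTV cells stood as high as stimulated cells of the other 3 animals. The log2 responses were 0.53 in FBR, 0.49 in FTV, 0.07 in FNV and 0.40 in FKN, with a mean of 0.37 ± 0.21 (SD, n = 4; 95% interval 0.14 to 0.60; limma adjusted p = 0.0268). The call was lost when FKN, FBR or FTV was left out (adjusted p of 0.106, 0.111 and 0.0973), with median centring in place of loess (0.257) and on the self-self arrays with no replicate block (0.128), though the mean stayed between 0.32 and 0.49 in every alternative tried. FNV had the smallest response and without it the mean was 0.47. Its ratio was 0.15 with stimulated RNA in Cy5, on the array whose labels disagree, and -0.0017 with it in Cy3. On the self-self arrays FNV did not stand apart: its TBX21 difference was 0.54, and the 4 animals averaged 0.49 ± 0.07 (SD). The stimulated self-self array of FNV was weak, however, with 33.3% of Cy3 and 37.6% of Cy5 spots well above background. The ratio arrays of FNV had 54.3% to 64.8%.

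EOMES differed between animals far more than between conditions. Its stimulated levels were 8.42 in FBR, 11.13 in FTV, 8.94 in FNV and 8.84 in FKN, against unstimulated levels of 7.89 in FBR, 10.58 in FTV, 8.65 in FNV and 9.18 in FKN. FTV was the highest animal and FBR the lowest in both conditions, and the 2 carry the same CD4 label. The span from lowest to highest animal was 6.56-fold in stimulated and 6.43-fold in unstimulated cells. The SD over animals was 1.22 in stimulated and 1.13 in unstimulated cells, larger than in 98.7% and 97.5% of probes, against medians of 0.29 and 0.29 over all probes.

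The log2 response of EOMES was 0.58 in FBR, 0.66 in FTV, 0.25 in FNV and -0.30 in FKN. The mean of 0.30 ± 0.44 (SD, n = 4) did not pass the test (limma adjusted p = 0.212). FKN was below 0 with the dyes either way round, at -0.41 with stimulated RNA in Cy5 and -0.18 with it in Cy3, and its self-self arrays gave -0.39. Without FKN the mean was 0.50 with a limma adjusted p of 0.0451, so this 1 animal decided the call.

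The genes whose 8 levels ran most like those of EOMES were PRF1, the pore-forming protein of cytotoxic granules (r = 0.97), NKG2D, an activating receptor of NK and cytotoxic T cells (0.96), and KLRD1 (CD94), its lectin-like relative (0.96), out of 13300 named candidates. These correlations describe 8 levels from 4 animals, among which FTV stands apart. In that animal PRF1 stood at 16.27 in stimulated and 14.46 in unstimulated cells, against 9.56 to 11.25 and 9.64 to 10.91 in the other 3. KLRD1 stood at 12.92 in stimulated and 12.03 in unstimulated FTV cells, against 6.92 to 8.22 and 6.72 to 7.73. FTV was the highest animal for 3 of 6 tested NK cell markers, as given above, and the part of NK cells in the EOMES levels was not tested.

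**Figure D2:**
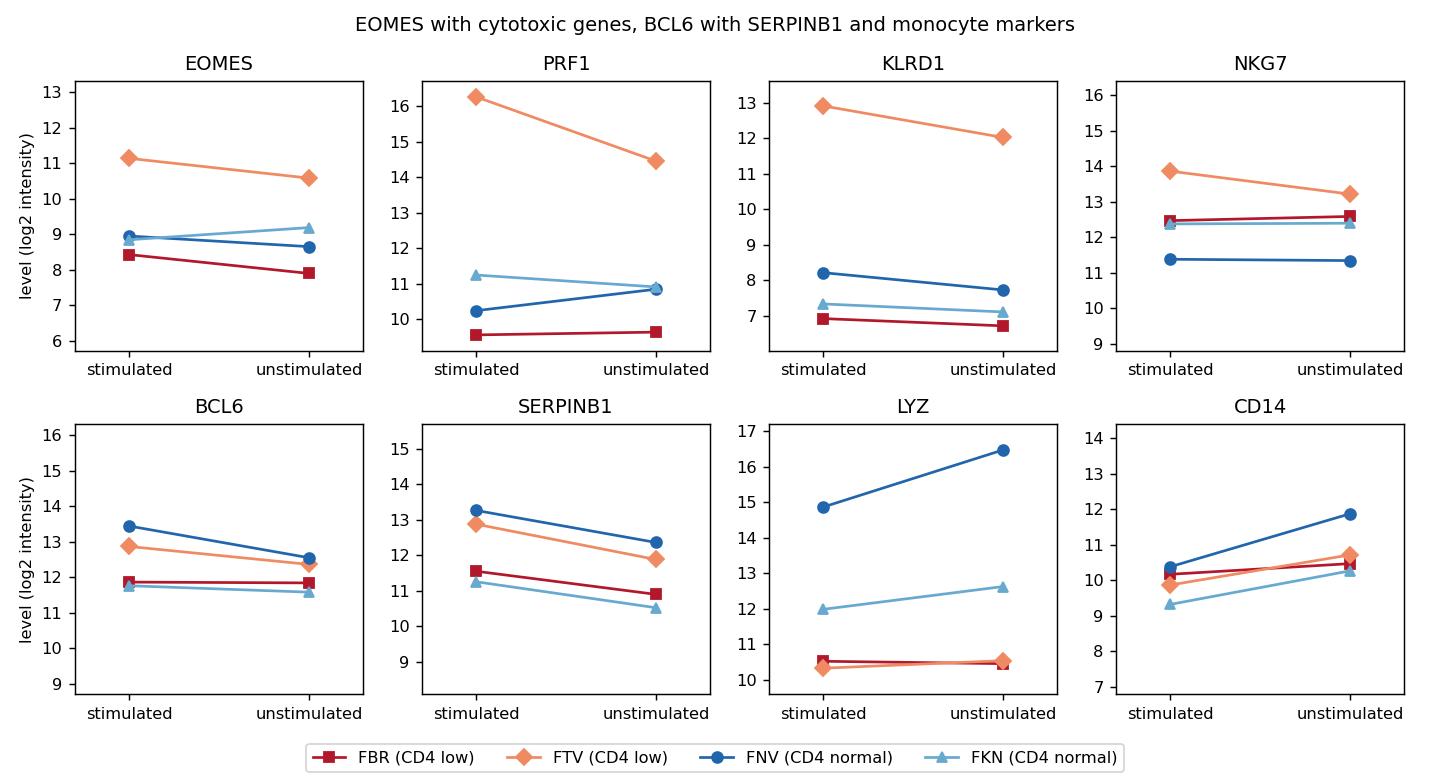
Levels (y axis, log2 normalized intensity) of EOMES with PRF1, KLRD1 and NKG7 (top) and of BCL6 with SERPINB1, LYZ and CD14 (bottom) in stimulated (left) and unstimulated cells (right), 1 line per animal. FTV was highest for the 4 genes of the top row, with EOMES at 11.13 stimulated and 10.58 unstimulated, and FNV was highest for the 4 genes of the bottom row, with LYZ at 14.87 stimulated and 16.48 unstimulated. FTV, next highest for BCL6 and SERPINB1, was lowest for stimulated LYZ (10.33) and under FBR for stimulated CD14 (9.87 against 10.17). Of the 6 tested NK cell markers FTV was highest for 3.

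HLX showed no common direction and was near background. Its stimulated levels were 6.73 in FBR, 7.35 in FTV, 6.55 in FNV and 6.65 in FKN, against unstimulated levels of 6.64 in FBR, 7.27 in FTV, 6.83 in FNV and 6.71 in FKN. FTV was the highest animal in both conditions, and the conditions overlapped. The log2 responses were 0.17 in FBR, 0.08 in FTV, -0.26 in FNV and -0.04 in FKN, with a mean of -0.01 ± 0.19 (SD, n = 4; limma adjusted p = 0.905). The authors' deposited table spreads the animals further for this dim probe, at 1.01 in FBR, 0.16 in FTV, -1.19 in FNV and -0.19 in FKN, with a mean of -0.05. LAT2, a membrane adaptor of B, NK and myeloid cells (r = 0.98), POLG, the mitochondrial DNA polymerase (0.97), and KLRF1, an NK cell receptor (0.96), ran most like HLX over the 8 levels. KLRF1 was at 8.89 in stimulated and 8.90 in unstimulated FTV cells, against at most 6.57 and 6.64 in the other animals.

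GATA3, the Th2 factor, was read by 2 probes that gave the same order of animals in the stimulated state. GATA3 probe 1 stood at 12.45 in FBR, 11.82 in FTV, 12.88 in FNV and 12.18 in FKN when stimulated, against 11.83 in FBR, 11.83 in FTV, 12.16 in FNV and 11.96 in FKN when unstimulated. GATA3 probe 2 stood at 10.70 in FBR, 9.90 in FTV, 10.97 in FNV and 10.18 in FKN when stimulated, against 10.23 in FBR, 10.04 in FTV, 10.47 in FNV and 10.03 in FKN when unstimulated. On both probes the stimulated levels of FNV and FBR lay above all 4 unstimulated levels, and that of FTV at or under the lowest of them. The span between animals was 2.09-fold in stimulated cells on either probe, and 1.26-fold and 1.35-fold in unstimulated cells.

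The GATA3 probes ranked the responses alike, except that FNV led on probe 1 and FBR on probe 2. On probe 1 they were 0.67 in FBR, 0.05 in FTV, 0.77 in FNV and 0.21 in FKN, with a mean of 0.42 ± 0.35 (SD, n = 4; limma adjusted p = 0.0620). On probe 2 they were 0.48 in FBR, -0.09 in FTV, 0.46 in FNV and 0.11 in FKN, with a mean of 0.24 ± 0.28 (SD, n = 4; limma adjusted p = 0.151). Neither probe passed the test, and FNV and FBR had the larger responses on both. Probe 1 crossed the threshold without FTV (mean 0.55, limma adjusted p = 0.0485), with median centring (0.51, adjusted p = 0.0495) and with the scan batch as a term (adjusted p = 0.0342). FNV alone makes up the earlier batch, and without FNV probe 1 was at 0.31 with no call (limma adjusted p = 0.114). Probe 2 passed under none of the 13 alternatives that held it. IPPK, an inositol phosphate kinase (r = 0.97), and both probes of the chemokine gene CCL8 (0.96 and 0.95) ran most like GATA3 probe 1, and one CCL8 probe stood at 11.20 in stimulated and 8.34 in unstimulated FNV cells, against 7.46 to 8.72 and 6.63 to 6.72 in the others. FNV was also the animal with the highest monocyte and B cell sums, whose part in the GATA3 levels was not tested.

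BCL6, the follicular helper factor, set 2 animals apart from the other 2. Its stimulated levels were 11.87 in FBR, 12.87 in FTV, 13.45 in FNV and 11.76 in FKN, against unstimulated levels of 11.84 in FBR, 12.36 in FTV, 12.55 in FNV and 11.58 in FKN. FNV and FTV, which carry different CD4 labels, were above FBR and FKN in either condition. The span was 3.21-fold in stimulated and 1.96-fold in unstimulated cells, and the SD of the stimulated levels, 0.81, exceeded that of 94.1% of probes.

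The log2 response of BCL6 was 0.03 in FBR, 0.59 in FTV, 0.92 in FNV and 0.12 in FKN. The mean of 0.41 ± 0.41 (SD, n = 4) did not pass the test (limma adjusted p = 0.0972), and without FNV the mean was 0.25 (limma adjusted p = 0.161). The mean of 4 animals did pass with the scan batch as a term (limma adjusted p = 0.0308). FNV alone makes up the earlier batch, so that term takes up its deviation while the mean keeps its response. The animals with the higher levels thus had the larger responses. This probe also carried a dye difference: on all 8 self-self arrays, where both channels held the same RNA, Cy5 exceeded Cy3 by 0.13 to 0.47, and the dye orientations of an animal differed by 0.29 to 0.44. With stimulated RNA in Cy3 the ratio was -0.12 in FBR and -0.09 in FKN, and with it in Cy5 it was 0.19 in FBR and 0.32 in FKN, so the sign in these 2 animals turned with the dye. The mean over both orientations cancels a dye difference of equal size, and the self-self arrays, read condition against condition, gave 0.39 ± 0.36 (SD, n = 4).

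PLEKHN1 (r = 0.99), SERPINB1, an inhibitor of neutrophil and monocyte proteases (0.97), and MYBPH, a myosin-binding protein (0.96), ran most like BCL6 over the 8 levels. SERPINB1 stood at 11.55 in FBR, 12.88 in FTV, 13.27 in FNV and 11.26 in FKN when stimulated, against 10.90 in FBR, 11.88 in FTV, 12.36 in FNV and 10.53 in FKN when unstimulated. The monocyte markers did not share 1 order: FNV and FTV were both above the other 2 animals for 4 of 10 tested markers when stimulated and 5 of 10 when unstimulated, while FTV was the lowest animal for CSF1R and MS4A7 in both conditions. S100A9, which was looked up after the values were seen, put FNV and FTV above the others, at 12.01 and 11.40 when stimulated and 12.87 and 12.29 when unstimulated, against 9.36 to 9.46 and 10.27 to 10.32. Unlike BCL6, S100A9 was lower in stimulated cells, with a mean log2 response of -0.83 ± 0.07 (SD, n = 4; limma adjusted p = 0.000731). The part of monocytes in the BCL6 levels was not tested.

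FOXP3, the regulatory T cell factor, gave the smallest spread of responses among the members. Its stimulated levels were 7.11 in FBR, 7.74 in FTV, 6.90 in FNV and 7.74 in FKN, against unstimulated levels of 7.04 in FBR, 7.72 in FTV, 7.03 in FNV and 7.74 in FKN. FTV and FKN were above FBR and FNV in both conditions, a division that crosses the CD4 labels. The log2 responses lay between -0.03 in FNV and 0.08 in FBR, with a mean of 0.03 ± 0.04 (SD, n = 4; 95% interval -0.10 to 0.16; limma adjusted p = 0.638). The interval is the measured one for a dim probe, whose ratios are compressed as given above. DPPA2, a pluripotency-associated factor (r = 0.98), TUBA8, an alpha tubulin (0.97), and the zinc finger gene ZFY (0.96) ran most like FOXP3. TUBA8 showed the same division on a wider scale, at 9.90 in FTV and 10.62 in FKN when stimulated and 10.42 and 10.85 when unstimulated, against 7.12 in FBR and 7.26 in FNV when stimulated and 7.36 and 7.26 when unstimulated.

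**Figure D3:**
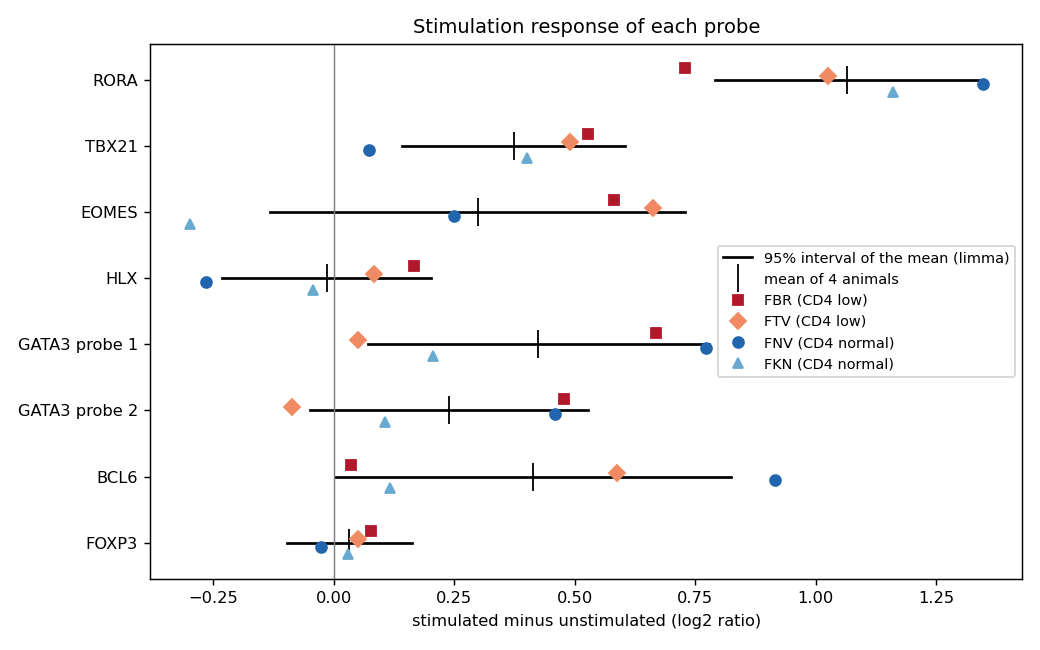
Log2 ratio of stimulated over unstimulated RNA (x axis) for each probe (rows), with 1 symbol per animal, the mean of 4 animals as a tick and limma's 95% interval as a bar. RORA lies between 0.73 and 1.35 in the 4 animals, TBX21 between 0.07 and 0.53, and every other probe except GATA3 probe 1 and BCL6 has animals on both sides of 0.

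**Figure D4:**
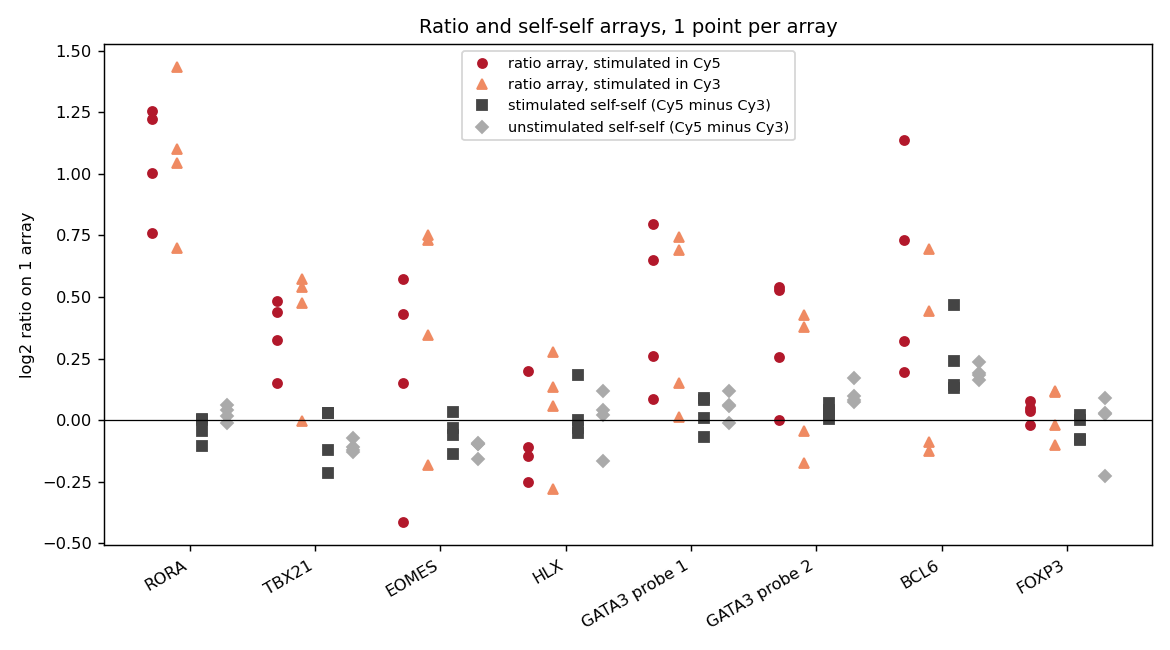
Log2 ratio on single arrays (y axis) for each probe (x axis): the ratio arrays by dye orientation, as stimulated over unstimulated, and the self-self arrays as Cy5 over Cy3. RORA is above 0 on all 8 ratio arrays and between -0.11 and 0.06 on the 8 self-self arrays, whereas BCL6 is at 0.13 to 0.47 on the self-self arrays.

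No member passed the test for CD4 status, a test that no probe at all passed and that cannot show that the classes are alike. With 2 CD4-low and 2 CD4-normal animals, limma called 0 of the 27492 probes for the response, the unstimulated level or the stimulated level, and 2.16%, 1.62% and 1.93% of probes had an unadjusted p under 0.05. FNV, scanned apart, is 1 of the 2 normal animals. Without FKN, which leaves FNV alone against the CD4-low animals, 5121 probes were called for the stimulated level, none of them a member, and without FTV 2 were called for the unstimulated level. No other tool was run for these counts.

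For the response, EOMES had the only interval among the members that did not reach across 0. Its response averaged 0.62 in CD4-low and -0.02 in CD4-normal animals, a difference of 0.65 (95% interval 0.06 to 1.23, limma adjusted p = 1.0). TBX21 averaged 0.51 in CD4-low and 0.24 in CD4-normal animals, a difference of 0.27 with an interval from -0.16 to 0.70. RORA averaged 0.88 in CD4-low and 1.25 in CD4-normal animals, a difference of -0.38 with an interval from -0.82 to 0.07. These differences moved with the scaling: median centring gave -0.028 for RORA, 0.61 for TBX21 and 0.96 for EOMES, with a median over all probes of 0.19 against 0.02. With the scan batch as a block they were -0.28, 0.11 and 0.92. FNV alone makes up the earlier batch, so that block amounts to leaving FNV out, with FKN alone for the normal class. The 2 low and 2 normal responses did not overlap for RORA, TBX21, EOMES, HLX and FOXP3, 5 of 8 probes, and 27% of all probes did the same. GATA3 and BCL6 overlapped between the classes, with intervals that reached from -0.94 to 0.69 for GATA3 probe 1 and from -1.13 to 0.72 for BCL6.

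For levels, unstimulated RORA was 9.99 in CD4-low and 9.68 in CD4-normal animals without overlap, a difference of 0.31 (interval -0.30 to 0.92, limma adjusted p = 0.822). Unstimulated GATA3 probe 1 was 11.83 in CD4-low and 12.06 in CD4-normal animals, also without overlap, a difference of -0.23 (interval -0.81 to 0.35, limma adjusted p = 0.822). Stimulated HLX was 7.04 in CD4-low and 6.60 in CD4-normal animals, again without overlap, a difference of 0.44 (interval -0.33 to 1.21), which did not pass either. All other member levels overlapped between the classes, and 34.3% of all probes had unstimulated and 34.2% stimulated levels that did not overlap. The interval for EOMES, from -2.11 to 2.75, was the widest of the unstimulated levels, and the highest and the lowest animal for it are both CD4 low.

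Most tested genes listed for the programmes of these factors rose, against 19.9% of all probes. These lists and those below were chosen with earlier results of these data known, so the excess over that share is no independent result. Whether the members drove any of these rises was not tested. Of 17 tested Th1 genes 10 rose and 2 fell, with a median log2 response of 0.60, and without FNV 11 rose and 2 fell. The genes with the largest rises were IFNG (interferon gamma, 5.51 ± 0.70, limma adjusted p = 0.000527), TNF (2.90 ± 0.23) and LTA (lymphotoxin, 1.54 ± 0.52, with 2.44 on its other probe and 3.17 on the self-self arrays). CXCR3, the Th1 chemokine receptor, fell by 1.64 (0.79 on its other probe) and IFNGR2, a chain of the interferon-gamma receptor, fell by 0.64 (0.40 on its other probe). TBX21 itself responded at 0.37.

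Of 11 tested Th2 genes 7 rose and 1 fell, with a median of 0.75, and without FNV 8 rose and 1 fell. The cytokines IL5 (5.99 ± 0.58, limma adjusted p = 0.000466), IL4 (4.62 ± 0.44) and IL13 (3.40 ± 1.59) rose most. The size for IL13 was 5.04 with the scanner software's ratios, 4.60 in the authors' deposited table and 4.16 without FNV. That for IL4 was 5.87 on the self-self arrays. ZFPM1 (FOG-1), a protein that binds GATA factors and represses with them, fell by 0.35 (SD 0.07, limma adjusted p = 0.00732). GATA3 was at 0.42 and 0.24 on its probes.

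Of 12 tested Th17 genes 9 rose and 1 fell, with a median of 0.67 and the same counts without FNV. The cytokine IL22 (5.65 ± 0.52, limma adjusted p = 0.000466), the chemokine CCL20 (4.55 ± 0.61) and IL17A (3.21 ± 0.49) rose most, and the protease CTSH fell by 1.20. RORA itself rose by 1.07.

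Of 13 tested follicular helper genes 8 rose and none fell, with a median of 0.60, and without FNV 8 rose and 1 fell. CD40LG, the ligand that helper cells offer to B cells (2.53 ± 0.42, limma adjusted p = 0.000697), the costimulator ICOS (2.18 ± 0.34) and the cytokine IL21 (1.85 ± 0.89) rose most, IL21 with no call without FKN (limma adjusted p = 0.0537). The size for IL21 depended on the processing: it was 4.45 with the scanner software's ratios and 4.14 in the authors' deposited table, beside 2.49 and 2.52 for CD40LG. Of 12 tested regulatory T cell genes 7 rose and 1 fell, with a median of 0.79 and the same counts without FNV. IL10 (3.92 ± 0.33 by its brighter probe, limma adjusted p = 0.000466) and the surface receptors CTLA4 (2.80 ± 0.34) and TNFRSF4 (2.76 ± 0.46) rose most, and FOXO3 fell by 0.47, a call lost without FBR (limma adjusted p = 0.0507). The other IL10 probe gave 0.85 and did not pass (limma adjusted p = 0.0695). Many genes of these lists, such as IL2RA and CD40LG, are induced in activated T cells of any kind. All probes tested had a median of -0.01.

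Among factors that partner or oppose the members, 12 of 21 tested rose and 1 fell, with a median of 1.04, and without FNV 13 rose and 3 fell. PRDM1 (Blimp-1), which opposes BCL6, rose by 2.49 ± 0.61 (SD, n = 4; limma adjusted p = 0.00145). GFI1, a repressor that acts with GATA3 in Th2 cells, rose by 2.31 ± 0.16 and BATF, an AP-1 factor needed in Th17 and follicular helper cells, by 2.27 ± 0.55. LEF1, a factor of naive T cells, fell by 1.05. BCL6, the factor that PRDM1 opposes, was at 0.41 in these samples.

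Among relatives within the members' own families, 2 of 10 tested rose, none fell and 8 did not pass, with a median of 0.016 and the same counts without FNV. That is near the share of all probes that rose, 19.9%. The risers were MAFF, a small MAF protein (0.58 ± 0.42, limma adjusted p = 0.0412), and NRL, a large MAF protein known in the retina (0.23 ± 0.08, limma adjusted p = 0.0292). Both MAFF and NRL lost their call without FKN, FBR or FTV, with adjusted p from 0.124 to 0.147 for MAFF and from 0.0898 to 0.134 for NRL. NRL was at 0.55 with the scanner software's ratios and at 0.11, with no call, on the self-self arrays with the replicate block (limma adjusted p = 0.683). Among those that did not pass were the FOXP3 relatives FOXP1 (0.36 ± 0.55), FOXP2 (-0.06 ± 0.03) and FOXP4 (-0.02 ± 0.07), and GATA2 (-0.25 ± 0.38). FOXP1 is counted among the partner factors as well. Beside these counts, 5 of 11 tested monocyte markers fell and none rose, 2 of 5 B cell markers fell and 1 rose, and 1 of 6 NK cell markers fell and none rose, against 20.4% of all probes that fell. Of 11 tested T cell markers 4 rose and 4 fell, and of 7 red cell and platelet markers 1 fell, or 3 without FNV, and none rose. Their part in the list counts was not tested.

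**Figure D5:**
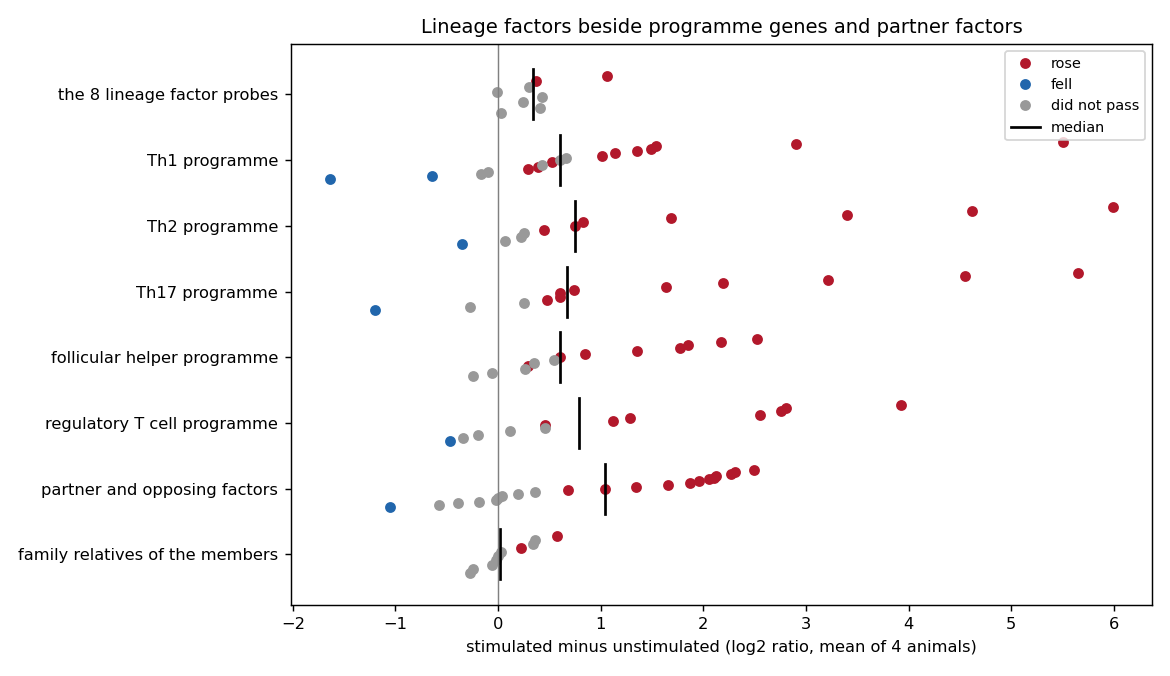
Mean log2 ratio of stimulated over unstimulated RNA in 4 animals (x axis) for the 8 lineage factor probes and for each list of genes (rows), 1 point per gene, red where it rose, blue where it fell and grey where it did not pass, with the list median as a bar. The lineage factor probes reach at most 1.07 (RORA), while IL5 reaches 5.99, IL22 5.65 and IFNG 5.51.

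The authors' deposited table of log2 ratios placed the members alike. Its means over the 4 animals were 1.13 for RORA, 0.40 for TBX21, 0.37 for EOMES, 0.40 and 0.25 for the GATA3 probes, 0.39 for BCL6 and 0.09 for FOXP3. EOMES in FKN was negative there too, at -0.31. Over all probes tested the authors' deposited values correlated with the ratios used here at 0.92 in FNV, 0.88 in FKN, 0.89 in FBR and 0.90 in FTV, across probes, which are not independent replicates.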

How the data were processed

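Per the labels, RNA of 4 animals was hybridised to 16 two-colour Agilent arrays. Spot intensities, background intensities, flags and log10 ratios were deposited as scanner output of Agilent Feature Extraction 10.7.3.1 (probe coordinates on rheMac2), per the file headers. A table of log2 ratios per animal was also deposited by the authors; how it was normalized is not stated in those sources.

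Spot and background intensities were corrected with normexp (offset 50), normalized by loess within arrays with control and outlier spots at weight 0, and by Aquantile for levels (R 4.3.3, limma 3.58.1). Arrays with exchanged dyes were averaged per animal. Probes entered the tests if the scanner flagged them as well above background in the same condition on each of the ratio arrays of at least 2 animals. That left 27492 of 43603 probes. All were fitted with lmFit and eBayes, with Benjamini-Hochberg adjustment at 0.05. The ratios were paired by animal, since each was taken within an animal. The deviations of an animal's stimulated and unstimulated levels from the condition means correlated at 0.73 to 0.76 over probes. Both levels of an animal draw partly on the same ratio arrays, so this correlation cannot tell the animal from its arrays. The fits were tested on simulated data.

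On 1 ratio array of FNV the title and a treatment label disagree on the Cy5 channel. The title was followed. Between 57.0% and 65.0% of spots were well above background per channel on the 12 later arrays, and 33.3% to 64.8% on the 4 of FNV. The lowest shares were the 33.3% and 37.6% of the stimulated self-self array of FNV. No spot was saturated. The number of arrays limits the precision.

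Members and gene lists were chosen with earlier results of these data known. An item that is not reported here was left out of the lists and their counts. Named genes are all member probes, up to 3 passing genes per list and direction with the largest change (1 probe per gene, the brightest), and the 3 probes whose 8 levels correlate most with each member. Alternatives covered background correction, normalization, filter, each animal left out, self-self arrays, scan batch, the array with conflicting labels, the deposited ratios, 1 probe per gene and an intensity trend.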

Additional observations from a re-analysis of the deposited data

Results flagged for a closer look

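The unstimulated TBX21 level of FTV, 10.37, lay far above the other 3 animals, which were within 9.81 to 9.89. Its gap to the nearest animal was 0.862 of the range, over the 95% critical value of Dixon's test for 4 samples. Of 24 sets of 4 values examined in this way (levels in either condition and responses of the 8 probes) this was the only 1 over the limit, and chance alone puts about 1 in 20 over it. FTV was also the highest animal for 3 of 6 tested NK cell markers, against 2 for FNV and 1 for FBR. The part of NK cells in the TBX21 level was not tested.

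The HLX response had opposite signs by CD4 status, and 27% of all probes had low and normal responses that did not overlap. Both CD4-low animals were above 0 (0.17 and 0.08) and both CD4-normal animals below it (-0.26 and -0.04), a difference of 0.28. The difference did not pass the test (limma adjusted p = 1.0), and the probe is dim. The sign also turned with the dye in 1 animal of each class: with stimulated RNA in Cy5 and in Cy3 the ratios were -0.11 and 0.28 in FTV, and -0.14 and 0.059 in FKN.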

How the results depend on the processing

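RORA passed under all 14 alternatives (0.97 to 1.18). TBX21 kept its direction in all 14 and its call in 9, losing it without FKN, FBR or FTV, with median centring (limma adjusted p = 0.257) and on the self-self arrays with no replicate block (adjusted p = 0.128). On the self-self arrays with the replicate block it passed (adjusted p = 0.00621). Calls were gained by EOMES without FKN, by GATA3 probe 1 without FTV, with median centring and with the scan batch as a term, and by BCL6 with the scan batch as a term. FNV alone makes up the earlier scan batch, and without FNV neither GATA3 probe 1 nor BCL6 passed. HLX was positive without FNV (0.069), its range over the animals left out being -0.075 to 0.069, and FOXP3 was at -0.054 on the self-self arrays with or without the replicate block. The cause of these changes was not tested. The 26 named genes of the lists kept their direction in all 361 values and their call in 339; median centring, for example, took the calls of MAFF, NRL, IFNGR2, ZFPM1 and FOXO3. Likeness values, recomputed after the data were seen, ranged from 0.73 (DNAJC14 with TBX21, scanner signals) to 0.99.

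The count of called probes, 11082, was 4851 (1949 higher, 2902 lower) with median centring, 2159 on the self-self arrays with no replicate block against 8169 with it, and 5796 (without FKN) to 14074 (without FNV) with an animal left out. For CD4 status the count of 0 became 2 for the unstimulated level without FTV and 5121 for the stimulated level without FKN, where FNV alone stands for the normal class and the scan batch cannot be told apart from it. For the response it stayed 0 with each animal left out. Median centring moved the median CD4 difference in response of all probes to 0.19, against 0.02.

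Several CD4 differences that passed no test changed sign. FNV alone makes up the earlier scan batch, so the scan batch as a block amounts to leaving FNV out. FKN then stands alone for the normal class. In the response, median centring gave 0.25 for GATA3 probe 1, 0.25 for GATA3 probe 2 and 0.18 for BCL6, and the scan batch as a block 0.15, 0.090 and 0.20; with an animal left out they ran from -0.44 to 0.18, -0.37 to 0.19 and -0.60 to 0.20. In the unstimulated level, FOXP3 was at 0.092 with scanner signals, BCL6 at -0.059 with median centring and GATA3 probe 2 at 0.10 with the scan batch as a block. With an animal left out, these ran from -0.36 to 0.35 for FOXP3, -0.45 to 0.52 for BCL6, -0.33 to 0.10 for GATA3 probe 2, -0.0099 to 0.52 for TBX21, -1.02 to 1.66 for EOMES and -0.14 to 0.49 for HLX. In the stimulated level, RORA was at 0.16 with scanner signals and 0.047 with median centring, and the scan batch as a block gave 0.071 for RORA, 0.12 for GATA3 probe 2, 0.60 for BCL6 and -0.32 for FOXP3. With an animal left out, these ran from -0.15 to 0.071 for RORA, -0.67 to 0.13 for GATA3 probe 2, -1.08 to 0.60 for BCL6, -0.32 to 0.52 for FOXP3 and -0.47 to 2.24 for EOMES. Signal over background limits HLX and FOXP3, and 4 animals limit every test.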
